A study of Mus musculus with 54 samples.

Results

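The kidneys of 130-week-old female C57BL/6J mice fed a diet with corylin were compared with those of females of the same age on the control diet. Corylin is a flavonoid of Psoralea corylifolia, a plant used in traditional medicine. The comparison rests on 6 polyA RNA-seq libraries, 3 from corylin-fed females and 3 from control-diet females, out of 53 libraries of kidney, liver and quadriceps muscle analysed from the series, and it was read across all 17174 expressed genes. The libraries are called corylin 1, 2 and 3 (OC-F-B1, OC-F-B2 and OC-F-R1 in the authors' names) and control 1, 2 and 3 (OSD-F-B2, OSD-F-B3 and OSD-F-R2). Also used were kidneys of 3 females aged 50 weeks on the control diet, called young females here, and of males in the same 3 groups, with 3 libraries each. The mice had been assigned at random to a diet, and the labels name no engineered allele. No source used here gives the dose, the start of feeding or what the letters B and R stand for. The labels do not say whether a library is a pool. A p-value therefore reflects only how far libraries scatter within the groups of the fit, which go beyond the 6 compared.

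The ageing kidney is known for a slow gain of immune cells, of interferon and complement transcripts and of scar matrix between the tubules, alongside loss of tubular transport functions. Macrophages clear debris and present antigen. Interferons act through receptors such as the one that contains Ifngr1 and induce antiviral genes, guanylate-binding GTPases and the machinery of antigen presentation. The mouse kidney also differs strongly between the sexes, since androgens control many genes of the proximal tubule, the segment that reclaims most of the filtrate.

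Of 17174 genes, 10 passed an adjusted p of 0.05 (0.0582% of those tested): 3 were higher in corylin-fed females (0.0175%) and 7 were lower (0.0408%). At an unadjusted p under 0.05 there were 2055 genes, 743 higher (4.33%) and 1312 lower (7.64%). The higher genes were Slc7a13, Serpina1d and Gpx6. The lower genes were Kap, Lbp, Fcgr3, Mmp3, Hspb8, Arrb2 and Ifngr1. The test, edgeR's quasi-likelihood test, took its estimate of spread from all 18 kidney libraries. With only the 6 libraries of the comparison in the fit no gene passed, and 1005 genes then had an unadjusted p under 0.05. Without control 3 the number that passed was 117, without corylin 1 it was 30, without corylin 2 it was 5, and without corylin 3 it was 2. DESeq2 on the same 18 libraries called 226 genes, 62 higher (0.361%) and 164 lower (0.955%), limma voom called 12, and the authors' deposited table lists 204, with all 10 of these genes among them. In what follows, a gene passed where edgeR's adjusted p was under 0.05. Counts by DESeq2 are given for many of the lists, and a list without one may still hold DESeq2 calls. Those counts are to be read against the DESeq2 shares of all genes, 0.361% higher and 0.955% lower. Among all tested genes, 51.8% had a negative and 48.2% a positive log2 fold change.

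**Figure D1:**
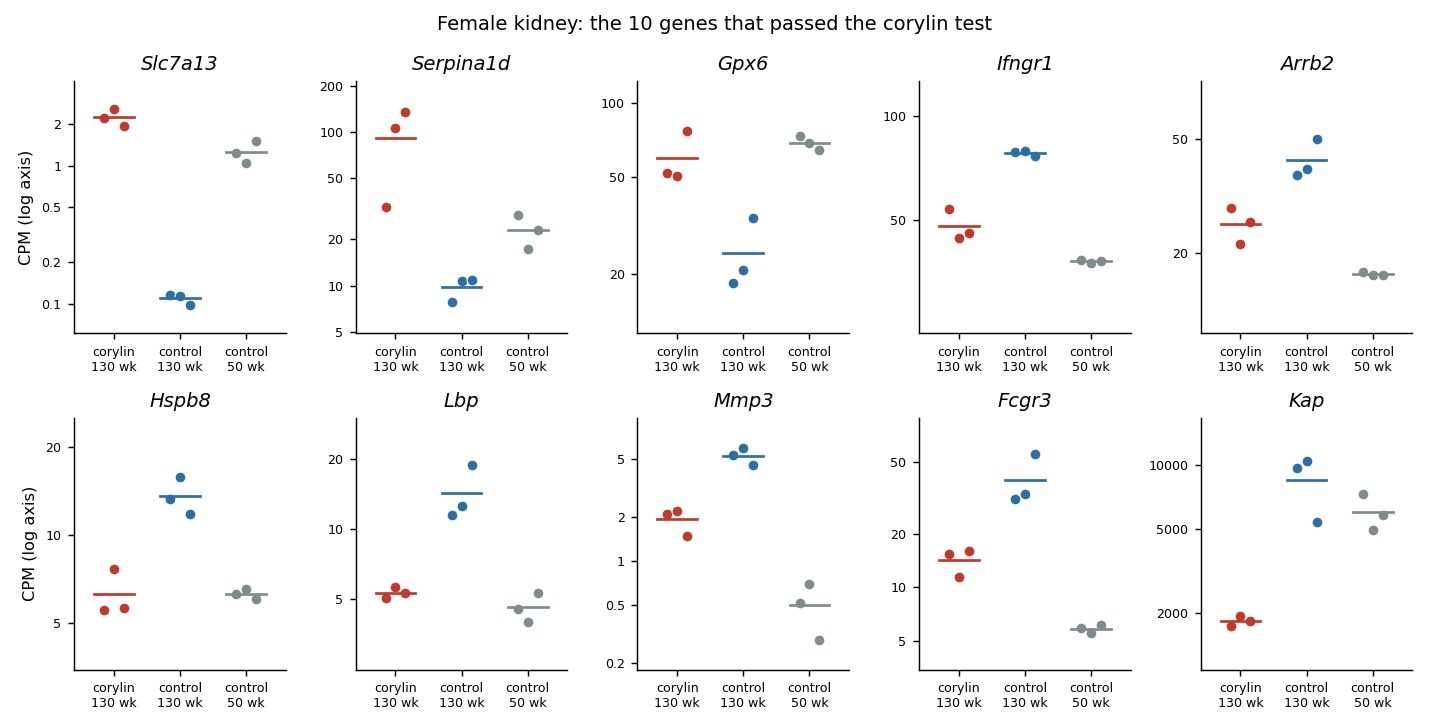
CPM (a gene's counts scaled to a library of 1000000 counts; log axis) of the 10 genes that passed in each female kidney library: corylin diet at 130 weeks, control diet at 130 weeks and control diet at 50 weeks. Each point is 1 library and each line a group mean. In every panel the 3 corylin points and the 3 control points at 130 weeks do not overlap.

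For 7 of the 10 genes the RefSeq table used here (GRCm38.p6) held a promoter; Slc7a13, Lbp and Arrb2 are named only. The 250 bases before the start of each were searched on both strands for AGAACA, the half-site shared by the androgen and glucocorticoid receptors, because Kap and Slc7a13 are known as hormone-controlled genes. It was present in 2 of the 7, Serpina1d and Hspb8, against 16.2% of 27018 mouse promoters of the same length. The letters TATAAA, the core of a TATA box, were present in 2 of the 7, Kap and Mmp3, against 13% of all promoters. The promoters with the hormone half-site are shown on the strand of the gene, with the match in capitals, read there as its reverse complement.
Serpina1d, chr12:103773634-103773883, minus strand: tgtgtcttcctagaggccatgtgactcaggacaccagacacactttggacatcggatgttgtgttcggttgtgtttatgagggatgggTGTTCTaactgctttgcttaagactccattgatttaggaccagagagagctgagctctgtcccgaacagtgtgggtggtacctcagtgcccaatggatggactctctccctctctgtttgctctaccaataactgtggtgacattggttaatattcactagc
Hspb8, chr5:116422865-116423114, minus strand: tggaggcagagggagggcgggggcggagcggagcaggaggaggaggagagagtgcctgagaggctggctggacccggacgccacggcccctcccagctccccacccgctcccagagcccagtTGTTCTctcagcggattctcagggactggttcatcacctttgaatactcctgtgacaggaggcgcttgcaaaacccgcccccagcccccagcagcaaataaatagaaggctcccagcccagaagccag
The match begins 162 bases before the start of Serpina1d, a gene that was higher in corylin-fed females, and 128 bases before that of Hspb8, one that was lower. Kap held no AGAACA in this window.

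Slc7a13 encodes an amino acid transporter of the proximal tubule that is far more abundant in male than in female mouse kidney. It lies on chromosome 4 (19818725 to 19842218, plus strand; here and below, coordinates are of GENCODE M21 on GRCm38). In CPM it stood at 2.21, 2.57 and 1.93 in the corylin-fed females and at 0.116, 0.114 and 0.0978 in the control-diet females. All 3 corylin libraries were above the young females, at 1.26 ± 0.228 (mean ± SD, n = 3), and all 3 control libraries below them. The log2 fold change was 4.26 ± 0.43 (adjusted p = 0.000411). Here and below, the ± of a log2 fold change is a standard error worked back from the test's F statistic. With low counts it can understate the counting error. The counts were 38, 27 and 30 with corylin and 2 in each control library. Taken over the group sums of 95 and 6 counts, the ratio was 20.2 with a 95% interval of 8.96 to 56.5 (exact Clopper-Pearson, counting error only). In males the gene stood at 430 ± 28.4 CPM with corylin and 496 ± 175 CPM on the control diet. The 4 Y-linked genes counted (Ddx3y, Uty, Kdm5d and Eif2s3y) had 0 counts in sum in the 3 corylin-fed females, 1 in the control-diet females and 6303 in the corylin-fed males. The call was kept without each of the 6 libraries in turn, and was lost with only the 6 libraries in the fit (adjusted p = 0.0972). It was also lost when the replicate number was added to that fit as a block (adjusted p = 0.351).

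Serpina1d encodes a protease inhibitor of the alpha-1-antitrypsin family, made mainly in the liver, and lies on chromosome 12 (103763594 to 103773592, minus strand). Its levels were 32.4, 106 and 134 CPM with corylin and 7.86, 10.7 and 10.9 CPM on the control diet. Corylin 1 was the lowest corylin library and still above every control library. The log2 fold change was 3.21 ± 0.39 (adjusted p = 0.00233); without control 2 the adjusted p was 0.0541. The family's copies are nearly identical in sequence, so that reads can be shared among them, and their values are given for that reason. Serpina1a averaged 15.7 CPM with corylin and 13.2 CPM on the control diet, Serpina1b 10.7 and 8.82 CPM, and Serpina1c 2.21 and 1.96 CPM, none of which passed (adjusted p = 0.725, 0.597 and 0.838). Of the 10 liver-cell markers tested, which include Serpina1a, Serpina1b and Serpina1c, none passed and the median log2 fold change was 0.11.

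Gpx6 encodes a glutathione peroxidase, an enzyme that reduces peroxides, and lies on chromosome 13 (21312125 to 21319624, plus strand). It stood at 51.7, 50.6 and 76.9 CPM with corylin and at 18.4, 20.9 and 34 CPM on the control diet, while young females averaged 68.9 ± 4.48 CPM. The groups at 130 weeks did not overlap, and the log2 fold change was 1.29 ± 0.22 (adjusted p = 0.04). Of the 35 genes listed for glutathione and the NRF2 response, 34 were tested and none passed by edgeR. DESeq2 called 1 higher, and their median log2 fold change was -0.11.

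Kap encodes kidney androgen-regulated protein, among the most abundant transcripts of the proximal tubule, and lies on chromosome 6 (133849851 to 133853762, minus strand). Its levels were 1730, 1930 and 1840 CPM in corylin-fed females and 9600, 10400 and 5350 CPM in control-diet females. The 3 corylin libraries lay close together, below all 3 young females (4900 to 7300 CPM) and below the 130-week-old males, who averaged 10100 ± 3350 CPM with corylin and 11200 ± 2970 CPM on the control diet (SD, n = 3 each). The log2 fold change was -2.21 ± 0.29 (adjusted p = 0.0039); without corylin 3 the adjusted p was 0.0565. Of 22 androgen-responsive kidney genes, all tested, Slc7a13 was higher and Kap was lower, and no other member passed; the median was -0.08. Odc1, the enzyme that starts polyamine synthesis, had 245, 241 and 240 CPM with corylin and 353, 379 and 251 CPM on the control diet (adjusted p = 0.318).

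**Figure D2:**
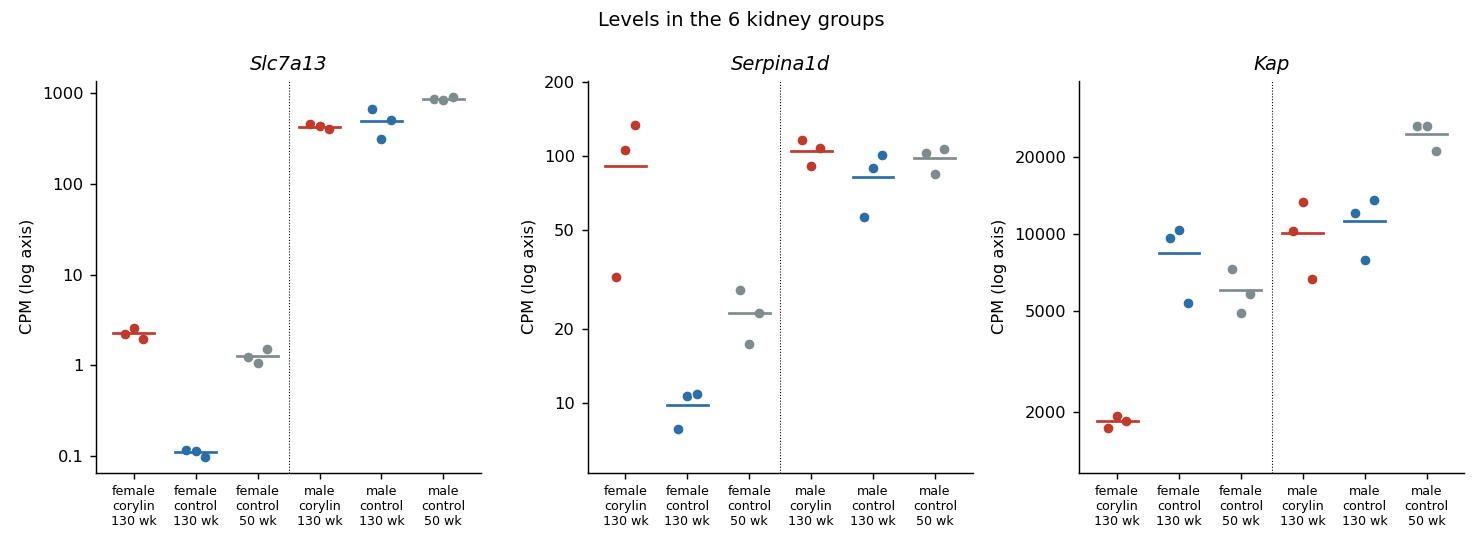
CPM (log axis) of Slc7a13, Serpina1d and Kap in the 6 kidney groups, females left of the dotted line and males right of it. Each point is 1 library and each line a group mean; Slc7a13 averaged 2.24 CPM in corylin-fed and 0.109 CPM in control-diet females, against 430 and 496 CPM in the matching males.

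Besides Kap, 6 genes were lower with corylin. Lbp, the carrier that hands bacterial lipopolysaccharide to its receptor (chromosome 2, 158306493 to 158332852), stood at 5.05, 5.62 and 5.27 CPM with corylin and 11.5, 12.5 and 18.7 CPM on the control diet. Its log2 fold change was -1.42 ± 0.20 (adjusted p = 0.00782), and the corylin libraries were at the level of young females (4.6 ± 0.679 CPM). Fcgr3, a receptor of myeloid cells for the constant part of IgG (chromosome 1, 171051174 to 171064935), had 15.3, 11.5 and 16 CPM with corylin and 31.4, 33.3 and 55.6 CPM on the control diet. Its log2 fold change was -1.48 ± 0.24 (adjusted p = 0.0302), and both groups lay above the young females at 5.87 ± 0.298 CPM. The related receptors Fcgr1 and Fcgr4 averaged 4.18 and 8.62 CPM with corylin and 12.3 and 23.6 CPM on the control diet, with adjusted p of 0.218 and 0.14.

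Ifngr1, the ligand-binding chain of the interferon-gamma receptor (chromosome 10, 19591949 to 19610229), showed a small shift between groups that were each tight. It stood at 53.7, 44.1 and 45.8 CPM with corylin and at 78.3, 78.8 and 76.4 CPM on the control diet, a log2 fold change of -0.70 ± 0.10 (adjusted p = 0.00848). Its partner chain Ifngr2 averaged 25.3 CPM with corylin and 32.5 CPM on the control diet and did not pass (adjusted p = 0.389). Arrb2, an arrestin that uncouples activated G-protein-coupled receptors (chromosome 11, 70432635 to 70440828), had 28.8, 21.4 and 25.6 CPM with corylin and 37.5, 39.3 and 49.8 CPM on the control diet (log2 fold change -0.74 ± 0.13, adjusted p = 0.0452). The other ubiquitous arrestin, Arrb1, averaged 104 CPM with corylin and 106 CPM on the control diet.

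Hspb8, a small heat shock protein that works with the autophagy of misfolded proteins (chromosome 5, 116408491 to 116422864), stood at 5.52, 7.63 and 5.59 CPM with corylin and 13.2, 15.7 and 11.8 CPM on the control diet. Its log2 fold change was -1.13 ± 0.19 (adjusted p = 0.0306); it was the only one of 18 heat shock genes to pass, and the median of the list was -0.02. Mmp3, stromelysin 1, a protease of the extracellular matrix (chromosome 9, 7445822 to 7455975), had 2.09, 2.19 and 1.48 CPM with corylin and 5.26, 5.94 and 4.5 CPM on the control diet (log2 fold change -1.45 ± 0.25, adjusted p = 0.0452). Leaving out single libraries ended the call of Mmp3 in 5 of 6 fits, of Gpx6 and Hspb8 in 4, and of Fcgr3, Arrb2 and Ifngr1 in 2. Serpina1d, Kap and Lbp each lost it in 1 fit, Lbp without corylin 3 (adjusted p = 0.0954).

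**Figure D3:**
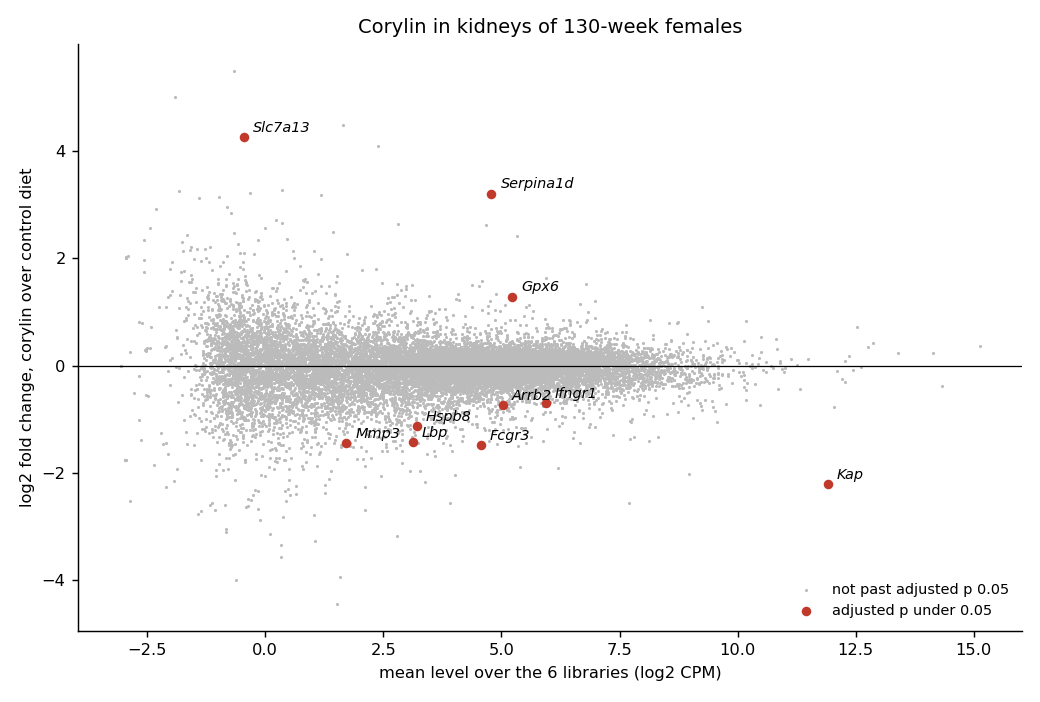
Log2 fold change, corylin over control diet, against the mean level over the 6 libraries (log2 CPM) for all 17174 genes. The 10 genes that passed are labelled; Slc7a13 is the weakly expressed one and Kap the most abundant.

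Several genes lay just outside the threshold. Cyp2c23, an enzyme that makes epoxides of arachidonic acid in the kidney, had 36, 62.3 and 53.5 CPM with corylin and 18.9, 24.2 and 26.2 CPM on the control diet (log2 fold change 1.13 ± 0.21, adjusted p = 0.0522). The chemokines Ccl9 and Ccl6, attractants of myeloid cells, averaged 6.01 and 9.06 CPM with corylin and 19 and 27.4 CPM on the control diet (adjusted p = 0.0522 for each). C6, a part of the membrane attack complex, had 1.57, 0.667 and 1.35 CPM with corylin and 3.47, 4.74 and 7.77 CPM on the control diet (adjusted p = 0.0522). For each of these 4 genes the groups did not overlap.

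These values rest on 9747210 to 15656047 counts per corylin library and 15690273 to 19057607 per control library. Kidney markers were present in all libraries: Lrp2, the endocytic receptor of the proximal tubule, had 1910, 1240 and 1380 CPM with corylin and 1900, 1550 and 1440 CPM on the control diet, and Umod, of the thick ascending limb, ranged from 5330 to 7190 CPM with corylin and from 5100 to 7450 CPM on the control diet. Control 2 stood apart on the first principal component of the 6 libraries (score 76.2, against -24.6 to -2.6 for the rest; 40.3% of the variance). It held 5.86% of its counts in mitochondrially encoded genes, against 10.2% to 11.2% in corylin libraries and 9.36% and 9.45% in the other control libraries. Control 2 also held the fat-cell genes Cfd at 248 CPM and Adipoq at 27.5 CPM, against at most 11.7 and 1.91 CPM in any corylin library. Corylin 3 held the B-cell genes Ms4a1 at 15.9 and Cd79a at 12.9 CPM, against at most 1.05 and 2.49 CPM in the other 5.

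Macrophage and monocyte genes had lower values with corylin across the list. All 24 on the list had a negative log2 fold change, against 51.8% of all tested genes, and the median was -1.05, against -0.01 over all genes. In 18 of the 24 every corylin library was below every control library, a pattern that 6.41% of all genes showed. Fcgr3 alone passed by edgeR, 22 members were lower at an unadjusted p under 0.05 (all genes, 7.64%), and DESeq2 called 10 lower. C1qa and C1qb, subunits of the first complement component and made largely by macrophages, had 71.6, 39.7 and 64.3 CPM and 71.2, 43.8 and 67.8 CPM with corylin. On the control diet C1qa had 136, 143 and 168 CPM and C1qb 137, 140 and 156 CPM. The log2 fold changes were -1.34 ± 0.27 for C1qa (adjusted p = 0.0761) and -1.24 ± 0.27 for C1qb (adjusted p = 0.0991). Cd14, a receptor for lipopolysaccharide, had 34.9, 23 and 24.1 CPM with corylin and 62.6, 54.3 and 42.2 CPM on the control diet (adjusted p = 0.0767). Adgre1, which encodes the macrophage antigen F4/80, had 11.2, 8.96 and 12.8 CPM with corylin and 22, 10.1 and 32.7 CPM on the control diet, so that the groups overlapped through control 2. In bulk tissue, fewer cells of a type and less RNA per cell cannot be told apart. Summed over the list, corylin libraries held 1260, 822 and 1230 CPM and control libraries 2100, 2010 and 2310 CPM.

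The count of macrophage genes below all controls was 23 of 24 without control 2, where 14.4% of all genes lay below the remaining controls. It was 18 of 24 without control 3, where that share was 14.3%. The median of the list lay between -1.25 and -0.91 when single libraries were left out. Of the same 24 genes, 23 were higher in 130-week than in 50-week control-diet females (adjusted p under 0.05; 7.69% of all genes were higher and 3.16% lower), with a median of 2.61. The control libraries at 130 weeks serve in both comparisons, so the values are set side by side only. In young females the list summed to 700, 434 and 422 CPM, below every corylin library.

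**Figure D4:**
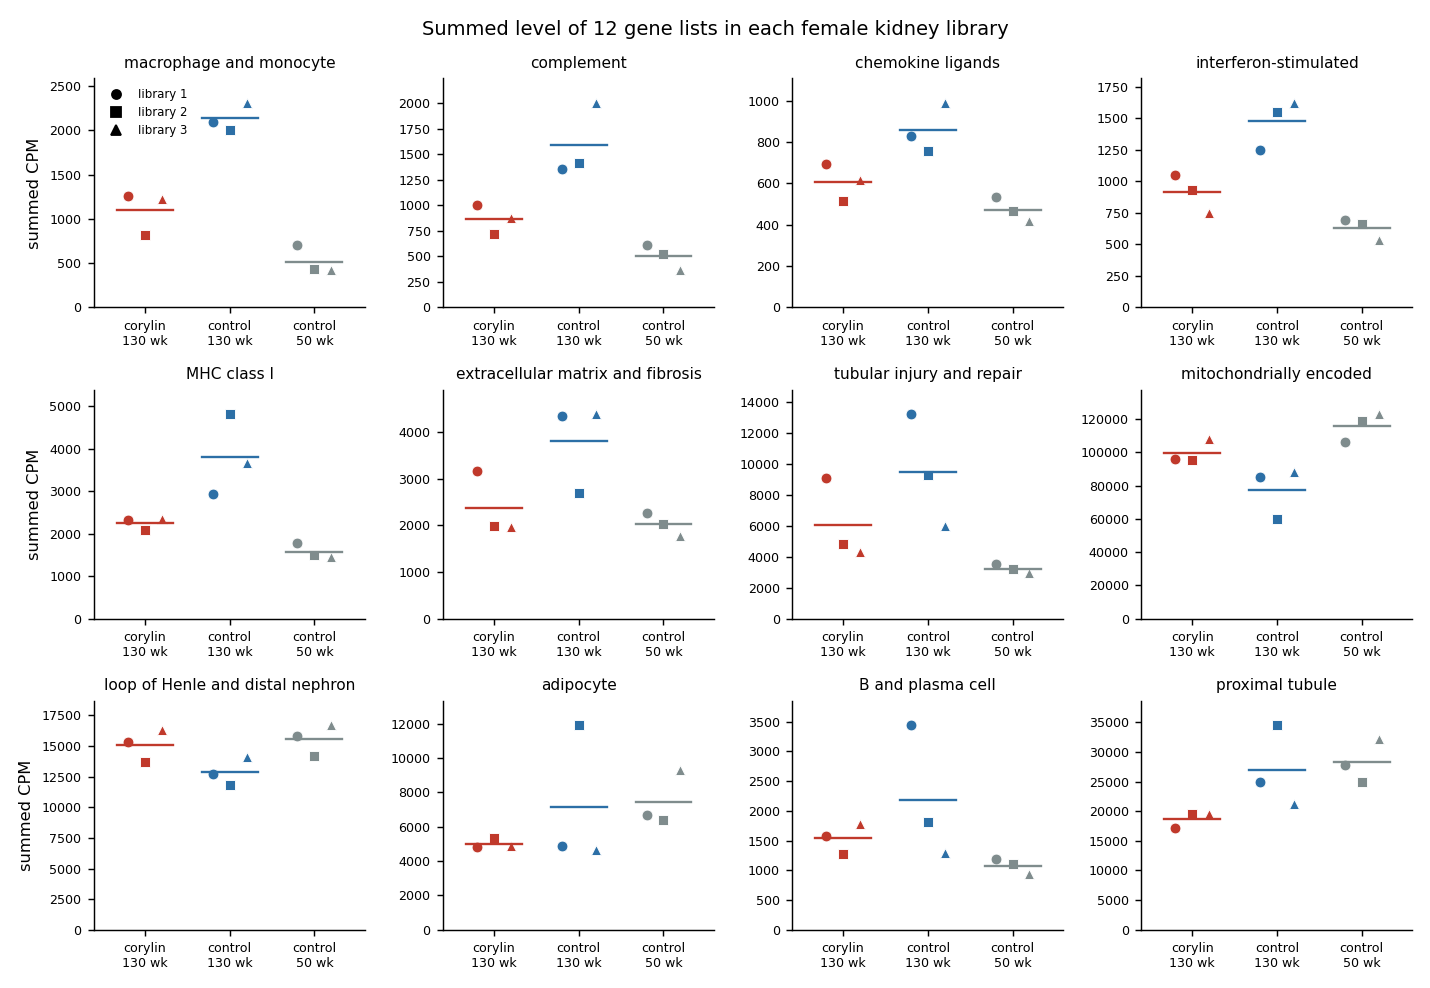
Summed CPM of 12 gene lists in each female kidney library: corylin diet at 130 weeks, control diet at 130 weeks and control diet at 50 weeks, with library 1 as a circle, 2 as a square and 3 as a triangle, and lines at the group means. The macrophage sums of the corylin libraries (822 to 1260) lie below those of the control libraries (2010 to 2310). The fat-cell sum, high in control 2 (11900), includes Pck1, also on the proximal tubule list, so it is not of fat-cell genes alone.

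Interferon-induced genes had lower values with corylin in nearly the whole list. Of 40 interferon-stimulated genes, 39 had a negative log2 fold change, the median was -0.80, and in 24 every corylin library lay below every control library, against 6.41% of all genes. None passed by edgeR or limma voom, 25 were lower at an unadjusted p under 0.05 (all genes, 7.64%), and DESeq2 called 7 lower. Members named from the interferon, MHC, inflammatory, neutrophil and injury lists are among the 3 with the smallest p in each and were chosen after the values were seen, apart from Havcr1, which was fixed as a check gene. Bst2, which tethers budding viruses, had 25.3, 15.4 and 15.5 CPM with corylin and 36.6, 80.6 and 38.4 CPM on the control diet (adjusted p = 0.14). Isg15, a ubiquitin-like modifier, had 6.16, 5.43 and 4.76 CPM with corylin and 11.1, 18.7 and 11.5 CPM on the control diet (adjusted p = 0.14). Oasl1, a relative of the antiviral oligoadenylate synthetases, had 5.75, 5.43 and 3.92 CPM with corylin and 8.67, 12.3 and 10.5 CPM on the control diet (adjusted p = 0.142). Control 2 was the highest library for all 3 genes, and the other 2 controls still lay above every corylin library. Without control 2 the median was -0.81 and 30 of the 40 lay below the remaining controls, against 14.4% of all genes. Without control 3 the median was -0.62 and 24 of the 40 lay below them, against 14.3% of all genes.

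The list of GTPases that interferon-gamma induces shared a sign. All 17 of the interferon-gamma GTPases and their regulators had a negative log2 fold change, against 51.8% of all genes, and the median was -0.68. In 12 every corylin library was below every control library, against 6.41% of all genes. By edgeR none passed, 12 were lower at an unadjusted p under 0.05 (all genes, 7.64%), and DESeq2 called 3 lower. Irgm1, a GTPase that acts on membranes of engulfed microbes, had 78.4, 70.6 and 77 CPM with corylin and 110, 189 and 108 CPM on the control diet (adjusted p = 0.157). Irf1, the transcription factor that relays the interferon signal, had 36.3, 33.1 and 28.6 CPM with corylin and 48.4, 49.5 and 46.9 CPM on the control diet (adjusted p = 0.194). Gbp3, a guanylate-binding protein, had 73.4, 27.5 and 27.4 CPM with corylin and 177, 243 and 66.2 CPM on the control diet, and corylin 1 overlapped control 3 (adjusted p = 0.118).

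All 16 genes of MHC class I presentation had a negative log2 fold change, with a median of -0.74. Below every control library were 14, against 6.41% of all genes. None passed by edgeR, 15 were lower at an unadjusted p under 0.05 (all genes, 7.64%), and DESeq2 called 5 lower. B2m, the light chain of class I molecules, had 409, 340 and 407 CPM with corylin and 533, 1020 and 718 CPM on the control diet (adjusted p = 0.144). The heavy chain H2-D1 had 452, 452 and 500 CPM with corylin and 610, 960 and 796 CPM on the control diet (adjusted p = 0.14), and Psmb8, a subunit of the immunoproteasome, 32.2, 20.3 and 29.4 CPM with corylin and 48.1, 86.2 and 46.6 CPM on the control diet (adjusted p = 0.14). The MHC class I median was -0.51 without control 2. Of 11 MHC class II genes, 9 had a negative log2 fold change, with a median of -0.71. Below every control library were 6, against 6.41% of all genes. H2-Aa, the alpha chain that presents antigen to helper T cells, had 306, 210 and 294 CPM with corylin and 531, 512 and 460 CPM on the control diet (adjusted p = 0.162). No class II gene passed by edgeR, and 6 were lower at an unadjusted p under 0.05 (all genes, 7.64%). DESeq2 called 3 lower, among them H2-Aa (adjusted p = 0.0324).

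No complement gene and no chemokine ligand passed by edgeR, although most had negative values. Some lists share members and are not independent. C1qa and C1qb are on both the macrophage and complement lists, and Vcam1 is on both the inflammatory and injury lists. Of 20 complement genes, 19 had a negative log2 fold change, and the median was -0.85. Below every control library were 10, against 6.41% of all genes. DESeq2 called 6 lower, and 13 were lower at an unadjusted p under 0.05 by edgeR (all genes, 7.64%). C4b, of the classical pathway, had 26, 16.1 and 27.3 CPM with corylin and 53.2, 64.4 and 141 CPM on the control diet (adjusted p = 0.105). C3, the hub of the system, had 223, 174 and 184 CPM with corylin and 251, 304 and 350 CPM on the control diet (adjusted p = 0.301), both above the young females at 49.2 CPM. Of 26 chemokine ligands tested out of 28, 24 had a negative log2 fold change, and the median was -0.85. In 9, against 6.41% of all genes, every corylin library was below every control library. DESeq2 called 3 lower, limma voom called 1, and 9 were lower at an unadjusted p under 0.05 by edgeR (all genes, 7.64%). Cxcl16 had 79.1, 68.8 and 65.5 CPM with corylin and 109, 106 and 113 CPM on the control diet (adjusted p = 0.105); a gene on the other strand overlaps it. Ccl2, an attractant of monocytes, had 3.08, 1.72 and 1.03 CPM with corylin and 7.11, 1.54 and 6.01 CPM on the control diet, with overlap through control 2 (adjusted p = 0.43).

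Of 27 genes of inflammatory signalling tested out of 30, 26 had a negative log2 fold change, and the median was -0.60. Below every control library were 12, against 6.41% of all genes. With edgeR no member passed, 13 were lower at an unadjusted p under 0.05 (all genes, 7.64%), and DESeq2 called 3 lower. Il1b, the interleukin-1 beta cytokine, had 2.56, 2.29 and 1.93 CPM with corylin and 12.7, 4.91 and 7.38 CPM on the control diet (adjusted p = 0.106). Icam1, an adhesion molecule that captures leukocytes, had 65.4, 44.4 and 37.3 CPM with corylin and 95.9, 81.2 and 67.5 CPM on the control diet (adjusted p = 0.14). Of 20 acute phase genes 13 were tested, and Lbp was the one that passed by edgeR. DESeq2 called 3 lower, and the median was -0.66. Haptoglobin (Hp) had 1.28, 6.29 and 2.06 CPM with corylin and 4.57, 58.3 and 20 CPM on the control diet (adjusted p = 0.1), and Serpina3n 3.37, 8.48 and 6.04 CPM with corylin and 9.71, 16.6 and 21.9 CPM on the control diet (adjusted p = 0.14). Saa3 lay the other way, at 0.116, 1.14 and 3.79 CPM with corylin and 0.173, 0.343 and 1.32 CPM on the control diet (adjusted p = 0.51). Of 12 neutrophil genes only 4 were expressed enough to be tested, of which DESeq2 called 2 lower. Among them S100a8 had 0.116, 0.667 and 0.386 CPM with corylin and 1.79, 5.88 and 3.42 CPM on the control diet (adjusted p = 0.0767); Ly6g, Mpo and Elane were not tested.

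Of 27 T and NK cell genes tested, 20 had a negative log2 fold change and 5 were below every control library, against 6.41% of all genes. The median was -0.32, and it was -0.13 without corylin 2, -0.52 without corylin 3 and -0.11 without control 3. None passed by edgeR or DESeq2, and 3 of the 27 were lower at an unadjusted p under 0.05 (all genes, 7.64%). For the 26 B and plasma cell genes tested the median was 0.44; it was 0.12 without corylin 1 and -0.11 without corylin 3, the library with the B-cell genes given above. Endothelial genes had a median of -0.09, and in none of 15 were all corylin libraries above or all below the control libraries. Of 14 podocyte genes 4 were below every control library, against 6.41% of all genes. The median was -0.31, or -0.17 without control 3. By edgeR none passed, 7 were lower at an unadjusted p under 0.05 (all genes, 7.64%), and DESeq2 called 2 lower.

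**Figure D5:**
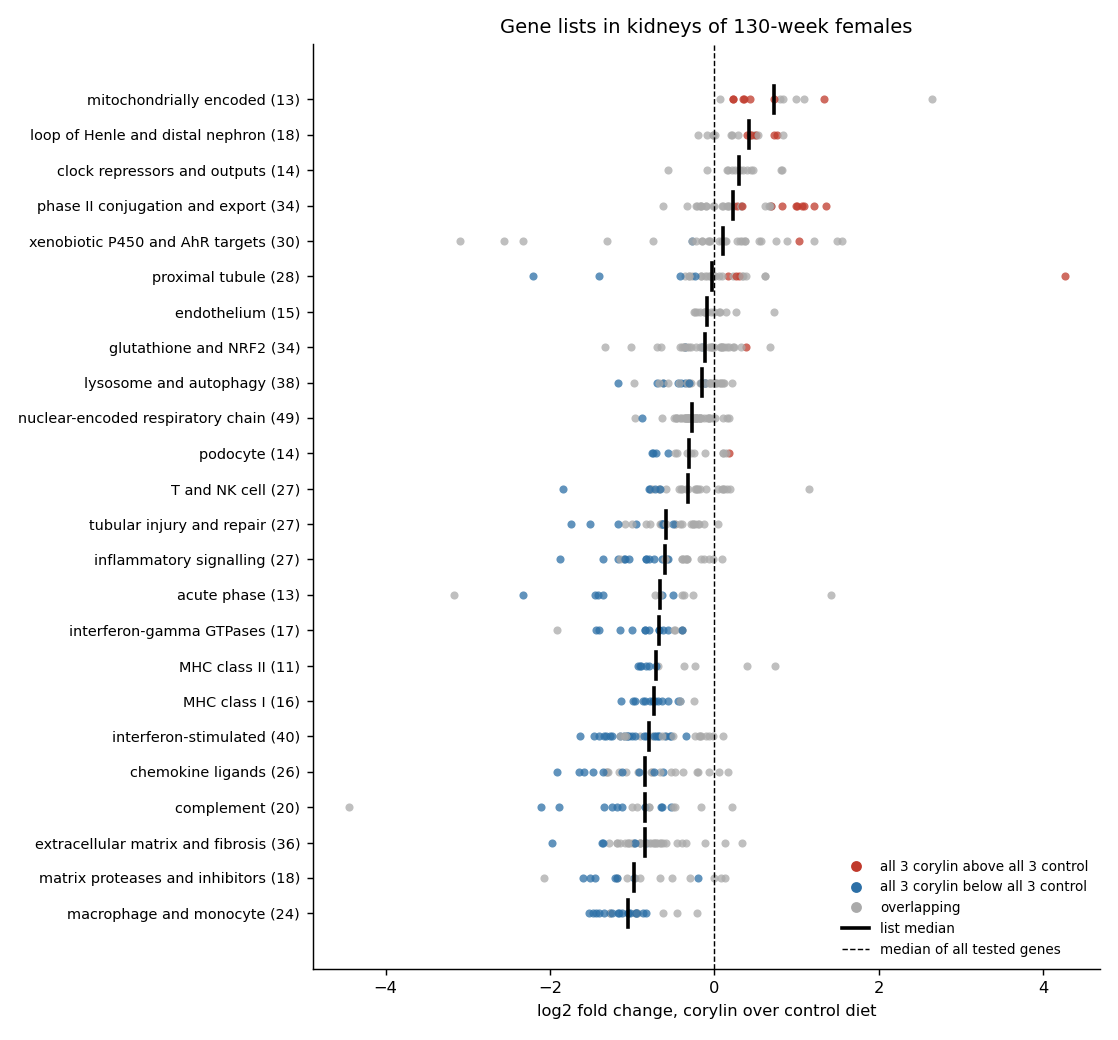
Log2 fold change, corylin over control diet, of the tested members of 24 gene lists, with the number tested in brackets. Each point is 1 gene, red or blue where all 3 corylin libraries lay above or below all 3 control libraries; black bars are list medians and the dashed line the median of all tested genes (-0.01). Of the 24 lists drawn, which leave out the fat-cell and neutrophil lists, the macrophage list has the lowest median (-1.05) and the mitochondrially encoded list the highest (0.72).

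Of 36 genes of extracellular matrix and fibrosis, 34 had a negative log2 fold change, and the median was -0.85. Only 6 were below every control library, against 6.41% of all genes. By edgeR none passed, and 23 were lower at an unadjusted p under 0.05 (all genes, 7.64%). DESeq2 called 5 lower, among them Sparc and Grem1 (adjusted p = 0.00974 and 0.0238). Col1a1, a chain of the main fibrillar collagen, had 60.6, 19.8 and 21 CPM with corylin and 119, 26.3 and 81.8 CPM on the control diet (adjusted p = 0.411), so that corylin 1 lay above control 2. Grem1, a secreted blocker of bone morphogenetic proteins, had 7.79, 2.96 and 5.34 CPM with corylin and 31.7, 8.28 and 24 CPM on the control diet (adjusted p = 0.14). Without control 2, 26 of the 36 lay below the remaining controls, against 14.4% of all genes. Without control 3 the count was 9 of the 36, against 14.3% of all genes. Of 18 matrix proteases and their inhibitors tested, 16 had a negative log2 fold change and Mmp3 passed by edgeR. DESeq2 called 3 lower, and the median was -0.98, or -0.40 without control 1. Mmp2, a gelatinase, had 6.51, 3.24 and 3.41 CPM with corylin and 16.5, 8.45 and 15.4 CPM on the control diet (adjusted p = 0.14). Corylin 1 was the highest corylin library for Col1a1, Grem1 and Mmp2.

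Of 27 genes of tubular injury and repair, 26 had a negative log2 fold change, with a median of -0.59. Below every control library were 8, against 6.41% of all genes. None passed by edgeR, 8 were lower at an unadjusted p under 0.05 (all genes, 7.64%), and DESeq2 called 3 lower. Krt20, a keratin that damaged tubules express, had 3.02, 1.53 and 1.67 CPM with corylin and 8.96, 7.48 and 4.74 CPM on the control diet (adjusted p = 0.134). Havcr1, which encodes the injury marker KIM-1, had 15.6, 4.1 and 4.44 CPM with corylin and 25.8, 12.1 and 11 CPM on the control diet (adjusted p = 0.503), with corylin 1 above controls 2 and 3. Both groups lay above the young females, at 0.747 CPM. Cdkn1a, the cell cycle inhibitor p21, had 30.9, 29.3 and 27.8 CPM with corylin and 33.9, 35.9 and 36.3 CPM on the control diet (adjusted p = 0.637), and the senescence and p53 list of 26 tested genes had a median of -0.18.

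No gene of the distal nephron passed by edgeR or DESeq2, and 8 were higher at an unadjusted p under 0.05 (all genes, 4.33%). Of 18 genes of the loop of Henle and distal tubule, 14 had a positive log2 fold change, against 48.2% of all genes, with a median of 0.42, and 6 were above every control library, a pattern that 5.83% of all genes showed. Klhl3, which controls breakdown of the WNK kinases of salt transport, had 97.1, 135 and 114 CPM with corylin and 45.9, 77.4 and 80.4 CPM on the control diet (adjusted p = 0.19). Wnk1 itself had 633, 571 and 651 CPM with corylin and 421, 430 and 511 CPM on the control diet (adjusted p = 0.25). Slc12a1, the salt transporter of the thick ascending limb that furosemide blocks, had 1500, 1320 and 2170 CPM with corylin and 827, 430 and 1530 CPM on the control diet, with overlap through control 3 (adjusted p = 0.323). The proximal tubule list had a median of -0.03 over 28 genes, with Slc7a13 higher, Kap lower and no other member past the test.

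Genes of phase II conjugation and export attach sugar or sulphate to drugs and hormones and pump them out. Of 34 tested, 23 had a positive log2 fold change, and the median was 0.23. Above every control library were 10, against 5.83% of all genes. With edgeR no member passed, 7 were higher at an unadjusted p under 0.05 (all genes, 4.33%), and DESeq2 called 5 higher. Ugt1a7c, a glucuronosyltransferase, had 142, 168 and 179 CPM with corylin and 87.6, 54.2 and 103 CPM on the control diet (log2 fold change 1.00 ± 0.20, adjusted p = 0.0767). The Ugt1a genes share exons, so that counts can be split among them, and Ugt1a6a and Ugt1a1 (adjusted p = 0.107 and 0.14) are not independent of it. Abcb1b, a drug efflux pump, had 30.3, 50.9 and 46.3 CPM with corylin and 18.6, 10.8 and 25.6 CPM on the control diet (adjusted p = 0.144). Neither Nqo1, a target of NRF2, nor Cyp1a1, a target of the aryl hydrocarbon receptor, passed: their log2 fold changes were 0.09 ± 0.20 and 0.37 ± 0.48, and their sign turned when 1 library was left out.

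All 13 mitochondrially encoded genes tested had a positive log2 fold change, with a median of 0.72. Above every control library were 7, against 5.83% of all genes. None passed by edgeR or DESeq2, and 3 were higher at an unadjusted p under 0.05 (all genes, 4.33%). The median was 0.40 without corylin 3 and 0.29 without control 2, the library with the low mitochondrial share. mt-Nd4, a subunit of complex I, had 7250, 7650 and 8580 CPM with corylin and 6500, 5050 and 6890 CPM on the control diet (adjusted p = 0.386). The 49 nuclear-encoded respiratory chain genes had a median of -0.27; it was -0.45 without control 1, 0.14 without control 2 and -0.42 without control 3. Fat-cell genes also followed control 2: the median of the 9 tested was -2.03, and 0.66 without it. Lpl, the lipase that frees fatty acids from lipoproteins and a member of that list, had 332, 239 and 265 CPM with corylin and 1040, 1990 and 380 CPM on the control diet (log2 fold change -2.03 ± 0.38, adjusted p = 0.0522). The groups of Lpl did not overlap, and without control 2 the log2 fold change was -1.34 (adjusted p = 0.0829); Lep and Ucp1 were too low to be tested. The part of fat tissue in these values was not tested.

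No clock gene passed by edgeR or DESeq2. The median of 14 repressors and output genes of the circadian clock was 0.30; it was 0.56 without corylin 1, 0.12 without corylin 3, 0.16 without control 1 and 0.54 without control 3. Nr1d1, which encodes the repressor REV-ERB alpha, had 80.1, 170 and 112 CPM with corylin and 47.4, 83.7 and 72.7 CPM on the control diet (adjusted p = 0.351). The median of 6 erythrocyte genes was 0.40; it was 0.69 without corylin 1 and -0.07 without corylin 3.

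The genes with the smallest adjusted p for lower levels at 130 than at 50 weeks in control-diet females differed in where the corylin libraries lay. They were chosen for low levels in the same control libraries that the corylin libraries are set against. The choice itself therefore favours higher values with corylin. Slc7a13, described above, was also in this set. Mmp3, Fcgr3 and Ifngr1 were among the genes of smallest adjusted p for higher levels at 130 weeks, in the same control libraries. Being in that set favours lower values with corylin. Dpys, an enzyme of pyrimidine breakdown, averaged 19.4 CPM in young females and had 2.56, 11 and 9.51 CPM with corylin and 1.27, 0.971 and 2.93 CPM on the control diet at 130 weeks (log2 fold change 2.09 ± 0.42, adjusted p = 0.0767), with corylin 1 below control 3. Uroc1, which acts in histidine breakdown, had 55.8, 72.5 and 80 CPM with corylin and 24.4, 40.7 and 47.8 CPM on the control diet (adjusted p = 0.107). Bhmt, which regenerates methionine with betaine, had 2.32, 16.8 and 14.1 CPM with corylin and 2.14, 7.54 and 5.96 CPM on the control diet, far below 75.9 CPM in young females. Ces1e, a carboxylesterase, had 6.91, 8.68 and 14.5 CPM with corylin and 6.36, 10.8 and 13.2 CPM on the control diet (adjusted p = 0.984), against 36.8 CPM in young females.

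The median log2 fold change between corylin-fed and control-diet males was -0.07 for the macrophage list, 0.05 for the interferon-stimulated list, 0.03 for MHC class I, -0.06 for complement and -0.18 for extracellular matrix. It was 0.98 for the clock repressors and outputs, -0.42 for B and plasma cells, -0.36 for T and NK cells, 0.36 for neutrophils and -0.27 for the mitochondrially encoded genes. In male kidney 12 genes passed. The difference between the sexes was tested gene by gene in the same fit, and Slc7a13 alone passed (0.00582% of genes), with the female effect 4.46 ± 0.48 log2 units above the male one (adjusted p = 0.000923). Its log2 fold change in males was -0.20. At an unadjusted p under 0.05 there were 1708 genes; DESeq2 called 67 and limma voom 0. For Kap, with a log2 fold change of -0.15 in males, the difference was -2.06 ± 0.39 (adjusted p = 0.142), and for Fcgr3 the difference was -1.32 ± 0.34 (adjusted p = 0.327). A difference that did not pass does not show that the sexes responded alike.

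The liver and quadriceps of the same females gave no gene whose corylin effect differed from that in kidney by edgeR: none of 17693 passed for kidney against liver, with 1084 at an unadjusted p under 0.05, and none for kidney against quadriceps, with 973. DESeq2 called 32 and 17. Lbp had log2 fold changes of -0.89 ± 0.18 in liver (adjusted p = 0.0679) and -1.35 ± 0.32 in quadriceps (adjusted p = 0.119), beside -1.42 in kidney. C1qa had -0.14 ± 0.57 in liver and -2.16 ± 0.61 in quadriceps (adjusted p = 0.123), beside -1.34 in kidney. Hspb8 had -0.68 ± 0.19 in liver (adjusted p = 0.113) and 0.01 ± 0.20 in quadriceps. Serpina1d, abundant in liver as a secreted product, had -0.41 ± 0.26 there (adjusted p = 0.483), beside 3.21 in kidney.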

How the data were processed

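PolyA RNA (TRIzol, TruSeq Stranded mRNA, 150 bp paired reads, NovaSeq) was sequenced, per the labels' protocols. The submitters' processing notes name the build GRCm38 (mm10) and the tools featureCounts 2.0.1, HISAT2 2.1.0, fastp 0.20.0 and FastQC 0.11.9. No source used here gives the annotation release, the strand setting or the authors' test. The deposited kidney table holds raw counts for 55471 genes, TPM values made by the authors (not used in a test), and p-values and log2 fold changes of comparisons by the authors, used only to count their calls. Columns were matched to libraries by name.

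CPM values and all tests were computed from the deposited counts with edgeR 4.0.16 in R 4.3.3: TMM scaling, a filter on low counts (minimum count 10, minimum total 15), and the robust quasi-likelihood test over all 18 kidney libraries in 6 groups, with Benjamini-Hochberg adjustment over 17174 genes and a threshold of 0.05. Log2 CPM for ranking used a prior count of 2. Sex differences were an interaction in that fit. Tissue differences came from 18 libraries under 6 female names, with that name, read as a single animal, as a block. DESeq2 1.42.0, limma 3.58.1, other filters, scalings and samples, left-out libraries and the letter of the library name were alternatives.

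The named genes were those past the threshold without overlap between groups, the 10 of smallest p where fewer than 5 passed in a direction, members of lists with a call or an extreme median, fixed check genes, and the genes of smallest adjusted p for age. The 3 members of smallest p in 8 further lists, the relatives of called genes and the Y-linked genes were added after the values were seen. Members and lists were chosen with earlier results of these data known. Of the table's IDs, 55144 were in GENCODE M21. The series lists 54 samples, of which 53 were analysed here.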

Additional observations from a re-analysis of the deposited data

Results flagged for a closer look

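The corylin effect on Slc7a13 in kidney differed between the sexes by the interaction test: it was 4.46 ± 0.48 log2 units higher in females than in males (edgeR adjusted p = 0.000923), with all 3 corylin-fed females above all 3 control-diet females. The log2 fold change was 4.26 in females, at low counts (95 in sum with corylin and 6 on the control diet), and -0.20 in males. The cause was not tested.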

How the results depend on the processing

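Among females at 130 weeks, the 10 genes past the threshold became 226 with DESeq2, 36 with no filter on low counts, 31 with the library letter in the model, 1 with the 9 female libraries and 0 with only the 6 libraries compared; leaving out single libraries gave 2 to 117. The sex difference (1 gene) became 67 with DESeq2, 0 with limma voom, 9 with no filter and 4 with the letter, and 1 to 31 without single libraries. Age (1863 genes) gave 1034 to 2260 without single libraries. Kidney against liver (0 genes) became 32 with DESeq2 and 0 to 25 without single animals; kidney against quadriceps (0) became 17 and 0 to 2. The causes were not tested. The fits on fewer samples have fewer degrees of freedom.

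Same-numbered corylin and control libraries correlated in their deviations from the group means by 0.31, 0.02 and 0.09. The value for number 1 was the highest of all pairs, while corylin 2 correlated best with control 3 (0.04) and corylin 3 with control 2 (0.11). Deviations within a group are tied to each other, so these values cannot show whether same-numbered libraries shared a litter, day or batch. With the replicate number as a block in the fits of 6 libraries, 0 genes passed for corylin and 322 for age; with the block within sex, 3 passed for the sex difference.

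Of 1738 values of 125 named genes under 14 settings, 21 reversed, all when a library was left out, 51 lost the call and 103 gained it. Log2 fold changes then ranged from -0.39 to 0.24 for Ces1e, -0.32 to 0.01 for Lrp2, -0.16 to 0.11 for Umod, -0.14 to 2.69 for Saa3, -0.04 to 0.61 for Per2, -0.03 to 0.73 for Hba-a1, -0.11 to 0.78 for Hba-a2, -0.17 to 2.21 for Cd79a, -2.8 to 0.85 for Cidec, -7.39 to 1.46 for Cfd, -7.07 to 2.11 for Adipoq, -0.03 to 0.66 for Cyp1a1 and -0.04 to 0.3 for Nqo1. Of 742 list medians, 24 moved by more than the spread between replicates.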
